A study of Mus musculus with 40 samples.

Results

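Ephrins are ligands anchored in the cell membrane, and Eph receptors are the receptor tyrosine kinases that bind them on a neighbouring cell. Ephrin-A ligands are held by a lipid anchor and mostly bind EphA receptors, ephrin-B ligands span the membrane and mostly bind EphB receptors, and contact can signal into both cells, where it changes adhesion, repulsion and the actin skeleton. In blood vessels ephrin-B2 marks arterial and EphB4 venous endothelium, and ephrin-A1 was first isolated as a transcript that tumour necrosis factor induces in endothelial cells. The 8 genes described here are 4 ligands (Efna1, Efna5, Efnb1 and Efnb2) and 4 receptors (Epha2, Epha4, Ephb3 and Ephb4) of 20078 genes listed over the 4 tables of the study. All 8 are listed in each table. They were chosen by symbol with the exposure results of these data known, Efna1 for its exposure difference in female liver, so their exposure differences below are a description and carry no test.

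The study measured RNA by 3′ tag sequencing, which counts one short tag near the end of each transcript, in liver and in gonadal white adipose tissue (gWAT) of male and female C57BL/6J offspring. Fathers had been exposed to nicotine or to the control condition, which the column headers call DMSO. The sources used here give neither the dose, route and length of the exposure, nor the age of the offspring, nor which offspring share a father. The labels give 40 samples in 8 groups of 5 (each tissue and sex, control or nicotine) and the tables hold 39 libraries, because male gWAT has 4 control columns. Every group is named below by its father's exposure. The labels number the samples but do not say whether litter mates are among them, so the p-values measure the spread between these samples only.

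Each library held between 1543208 and 2239073 reads on listed genes. A single read was worth between 0.736 and 1.33 normalised counts. In female gWAT it was worth 0.828 to 0.980 in the controls and 0.909 to 1.21 in the nicotine group. The tissue labels matched their markers. Alb was at 28864 or more in each liver library and at no more than 1866 in gWAT, and Adipoq was at 2900 or more in each gWAT library and at no more than 42.8 in liver. Several libraries carried transcripts of other tissues. Skeletal muscle markers (8 genes, 7 of them listed in female liver) summed to 195 in female liver control 4, to 318 in nicotine 5, to 6819 in male liver nicotine 4 and to 24611 in female gWAT control 2. Markers of the exocrine pancreas (5 of 6 listed) summed to 7616 in male liver nicotine 2, and markers of epididymis and testis (7 of 7 listed) ranged from 208 to 20445 over the male gWAT libraries. Male liver nicotine 1 and 5 stood apart from the rest of their table, with hepatocyte marker sums of 48691 and 48270 against 60125 or more in the other 8 libraries.

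The promoters of the 3 genes with the largest exposure differences are shown, each from 250 bases before to 50 bases after a transcript start (RefSeq, GRCm38.p6, written along the gene's strand). RefSeq gives Efna1 a pair of start sites, whose windows are chr3:89280902-89281201 and chr3:89279596-89279895, minus strand. The Efna5 window is chr17:62881268-62881567, minus strand, and the Ephb3 window is chr16:21204545-21204844, plus strand. Capitals mark a GC box (GGGCGG or its reverse complement CCGCCC) or the core of a hypoxia response element (ACGTG).
Efna1, first window: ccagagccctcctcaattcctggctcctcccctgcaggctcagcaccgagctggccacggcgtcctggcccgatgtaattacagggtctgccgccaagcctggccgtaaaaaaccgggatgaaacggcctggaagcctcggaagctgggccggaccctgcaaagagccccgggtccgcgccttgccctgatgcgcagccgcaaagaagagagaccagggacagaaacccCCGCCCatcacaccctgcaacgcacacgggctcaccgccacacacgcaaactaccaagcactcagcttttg
Efna1, second window: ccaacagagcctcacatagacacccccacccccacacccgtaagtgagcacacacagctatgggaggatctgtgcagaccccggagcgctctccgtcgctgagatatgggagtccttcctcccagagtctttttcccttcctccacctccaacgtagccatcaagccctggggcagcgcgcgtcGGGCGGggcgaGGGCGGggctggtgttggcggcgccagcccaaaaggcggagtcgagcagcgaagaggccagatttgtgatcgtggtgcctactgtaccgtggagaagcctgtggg
Efna5: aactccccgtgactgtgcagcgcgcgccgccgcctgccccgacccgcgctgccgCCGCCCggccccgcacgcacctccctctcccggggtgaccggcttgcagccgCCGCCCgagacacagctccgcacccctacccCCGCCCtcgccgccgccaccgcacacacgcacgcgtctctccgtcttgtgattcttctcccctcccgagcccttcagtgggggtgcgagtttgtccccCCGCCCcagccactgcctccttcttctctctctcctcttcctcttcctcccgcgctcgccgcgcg
Ephb3: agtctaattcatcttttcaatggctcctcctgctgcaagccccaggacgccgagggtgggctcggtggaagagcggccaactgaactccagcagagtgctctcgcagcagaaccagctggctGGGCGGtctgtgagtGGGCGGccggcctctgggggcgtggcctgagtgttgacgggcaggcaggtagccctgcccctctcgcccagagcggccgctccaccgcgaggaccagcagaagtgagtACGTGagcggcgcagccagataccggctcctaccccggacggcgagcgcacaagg

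GC boxes occurred 1 and 2 times in the Efna1 windows, 4 times in the Efna5 window and 2 times in the Ephb3 window. Of all 32851 promoter windows of this length, 35.7% held at least 1. ACGTG, which is also contained in the E-box CACGTG, occurred 1 time in the Ephb3 window and is held by 19.6% of all windows. CACGTG (7.15% of all windows), the AP-1 motif TGANTCA (7.81%), the NF-kappaB motif (0.411%), the D-box TTATGNAA (3.39%) and the cAMP response element TGACGTCA (1.79%) were searched on both strands and did not occur in these 4 windows.

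Efna1 encodes ephrin-A1, the preferred ligand of EphA2, and lies at chr3:89271733-89281142 on the minus strand (GRCm38). In female liver the 5 control libraries held 290, 195, 263, 257 and 252 normalised counts of Efna1. The 5 nicotine libraries held 67.8, 53.3, 27.9, 76.3 and 93.0. The lowest control library was above the highest nicotine library, so the groups did not overlap, as was the case for 4.73% of all genes tested there. Nicotine 3 was the lowest library of all. The means were 251 ± 34.9 and 63.7 ± 24.6 (SD, n = 5 each), 3.95-fold lower in the nicotine group, with a log2 difference of -2.06 (SE 0.22, on the log2(normalised count + 1) scale). This was the third lowest log2 difference among the 9173 genes tested in female liver (mean normalised count of 10 or more). Without control 4 and nicotine 5, the libraries with skeletal muscle transcripts, Efna1 was still called, and over all alternatives run its log2 difference stayed between -2.22 and -1.79.

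**Figure D1:**
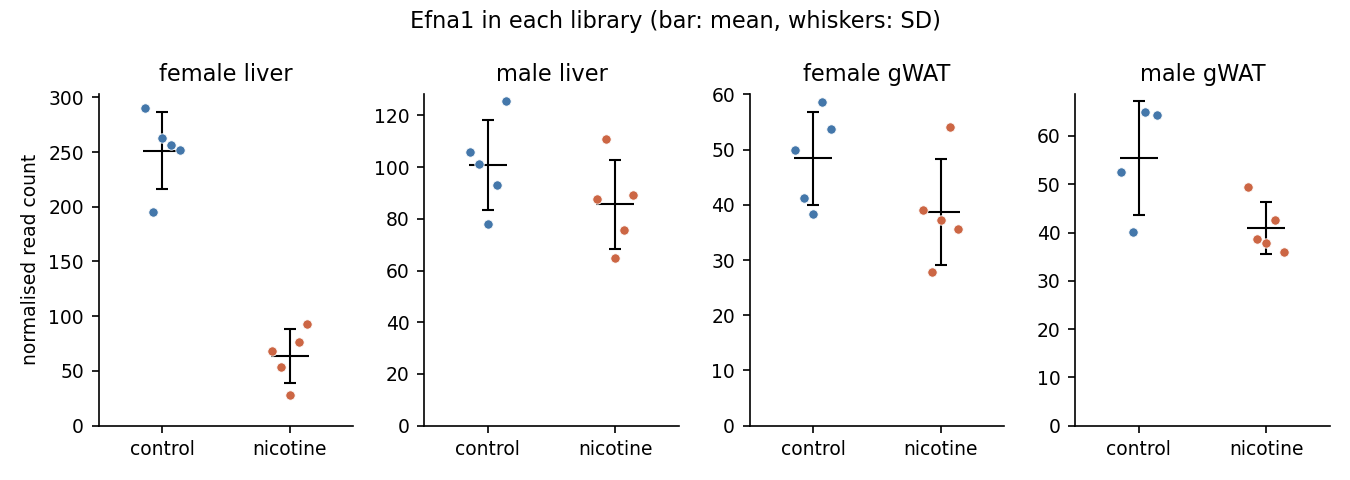
Normalised read counts of Efna1 in each library (points), with the group mean (bar) and SD (whiskers), for the 4 tables, each on its own axis from 0. In female liver the control libraries lie between 195 and 290 and the nicotine libraries between 27.9 and 93.0, while the ranges overlap in the other 3 tables.

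In male liver Efna1 was at 106, 101, 78.0, 93.0 and 125 in the controls and at 87.5, 111, 64.9, 75.5 and 89.3 in the nicotine group. The ranges overlapped, as those of all 8 genes did in a table where 3.16% of genes tested did not, and the log2 difference was -0.24 (SE 0.17). In female gWAT it was at 49.98, 41.2, 38.4, 58.6 and 53.8 in the controls and at 39.0, 27.8, 37.3, 54.1 and 35.6 in the nicotine group, a log2 difference of -0.33 (SE 0.21). The 4 male gWAT control libraries held 52.5, 40.1, 65.0 and 64.3 and the nicotine libraries 49.5, 38.6, 37.7, 42.6 and 36.0, a log2 difference of -0.41 (SE 0.20). All 4 differences were below 0, and only in female liver did the groups not overlap. The difference between the male and the female liver effect (male minus female) was 1.82 on the log2 scale (SE 0.31), and leaving out any 1 of the 20 liver libraries kept it between 1.56 and 1.98.

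Some marker sums of liver cell types differed between the groups of the same female libraries, and others overlapped. The 12 endothelial markers, all listed, summed to 1170 to 1207 in the controls and to 933 to 1100 in the nicotine group, without overlap. The 8 markers of sinusoidal endothelium summed to 369 to 423 and to 277 to 341, also without overlap. The 5 listed cholangiocyte markers (Krt7, Krt19 and Cftr are not listed) summed to 129 to 216 and to 111 to 136, with overlap. The 5 listed hepatocyte markers summed to 67996 to 78384 and to 68293 to 84798, with overlap. Sums also overlapped for macrophages with Kupffer cells (403 to 605 and 369 to 691) and smooth muscle (266 to 364 and 311 to 391). So did the 5 listed markers of arterial endothelium (Gja5 and Bmx are not listed), at 26.2 to 37.4 and 22.9 to 35.1. The part of these sums in the Efna1 difference was not tested. In bulk tissue, fewer cells of a type and less RNA per cell cannot be told apart.

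Scaled to CPM, which sets all library sizes equal, over all 39 libraries with TMM factors, which correct library sizes for composition, the Efna1 level was 156 ± 21.8 in female liver controls (SD, n = 5), 65.4 ± 11.4 in male liver controls, 54.1 ± 11.5 in male liver nicotine and 39.6 ± 15.5 in female liver nicotine. In gWAT it was 24.0 ± 4.86 in male controls (n = 4), 23.7 ± 4.05 in female controls, 18.9 ± 4.70 in female nicotine and 17.9 ± 2.48 in male nicotine. In this order only the female liver controls were separated from the next group, and each later pair of neighbours overlapped in range.

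Control livers were also compared between the sexes, a comparison added after the data were seen. It shares the female control libraries with the exposure contrast for which Efna1 was chosen, so its values for Efna1 are given with no p. Control females were 2.39-fold above control males, without overlap, with a log2 difference (males minus females, log2(CPM + 1)) of -1.25 (SE 0.13, n = 5 each). In that comparison 15.4% of 9127 genes were called at an adjusted p below 0.05, either direction. The share of all genes without overlap was not counted there. Efnb1 (-0.41, limma adjusted p = 0.165) and Efna5 (-0.31, limma adjusted p = 0.328) were the other 2 members fitted there and were not called. In control gWAT the Efna1 difference between the sexes was 0.03 (SE 0.21, limma adjusted p = 0.966), and limma called none of the 7 members fitted, 0 of them at an unadjusted p below 0.05, beside 1.54% of all genes.

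In female liver 3 of the 8 genes reached the mean count of 10 needed for the fit (Efna1, Efna5 and Efnb1), and 1 of them was called by limma, beside 3.28% of all genes tested in either direction (1.61% higher and 1.67% lower). Efnb1, the X-linked gene of the transmembrane ligand ephrin-B1 (chrX:99136130-99148991), was at 46.6, 30.9, 40.3, 26.6 and 41.9 in the controls and at 23.6, 30.4, 31.2, 19.6 and 30.0 in the nicotine group. The ranges overlapped and the log2 difference was -0.44 (SE 0.19). Efna5, an ephrin-A that binds EphA receptors and also EphB2, had a log2 difference of 0.01 (SE 0.19), with 23.5 ± 2.65 and 24.1 ± 5.11 normalised counts (SD, n = 5 each). The median over the 3 genes was -0.44, and over all genes tested it was -0.00.

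The other 5 genes lay near the limit of detection in female liver. Efnb2 averaged 8.17 ± 2.87 and 9.23 ± 5.03 normalised counts (SD, n = 5 each) in controls and nicotine. Ephb4 averaged 7.80 ± 3.29 and 10.2 ± 6.50, and Epha2, the main receptor of ephrin-A1, 6.32 ± 3.84 and 5.70 ± 2.29. Epha4, a receptor that binds both ligand classes, averaged 3.43 ± 0.909 and 3.66 ± 3.04, and Ephb3 1.15 ± 1.56 and 1.41 ± 0.809. These are a few reads per library.

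In male liver 4 genes were fitted and limma called none of them, beside 0.0550% of all genes (5 of 9093). Neither edgeR nor DESeq2 on recovered reads called a member there. At an unadjusted p below 0.05 were 14.5% of all genes (1322 of 9093) and 1 of the 4 members. This was Ephb4, the receptor of ephrin-B2 (chr5:137350109-137378669, overlapping Zan on the opposite strand), at 7.91, 8.44, 7.09, 5.87 and 12.3 in the controls and at 19.1, 13.5, 16.8, 8.96 and 11.5 in the nicotine group, a log2 difference of 0.67 (SE 0.30) with overlap. Efna5 (-0.03, SE 0.28) and Efnb1 (0.03, SE 0.22) differed by less than their errors. Without nicotine 1 and 5, which stood apart, the log2 difference was 0.59 for Ephb4, -0.28 for Efna1 and -0.31 for Efna5. Without nicotine 2 and 4, which held pancreas or muscle transcripts, it was 0.86 for Ephb4, -0.32 for Efna1 and 0.37 for Efna5, so that of Efna5 changed sign, and none was called. The median over the 4 genes was -0.00, and 0.00 over all genes.

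**Figure D2:**
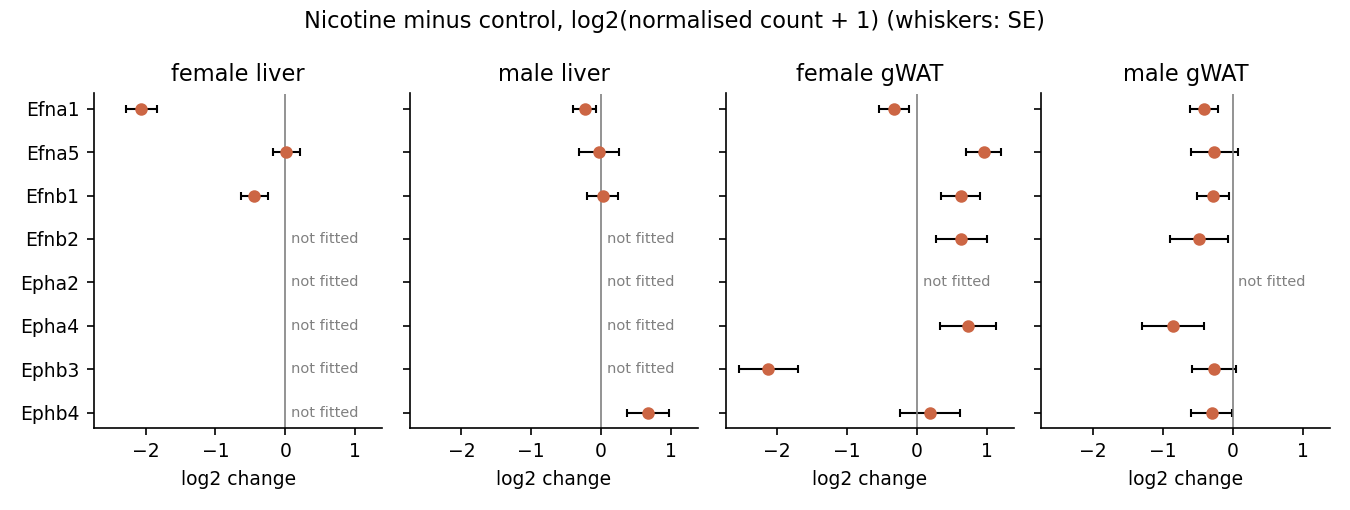
Difference between nicotine and control on the log2(normalised count + 1) scale for each gene and table (points) with its SE (whiskers); genes with a mean count under 10 are marked as not fitted. Efna1 in female liver (-2.06) and Ephb3 in female gWAT (-2.13) lie farthest from 0, and all 7 genes fitted in male gWAT lie below 0.

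In female gWAT 7 of the 8 genes were fitted, all but Epha2. Limma called 2 of them, Efna5 higher and Ephb3 lower, in a tissue where 25.2% of 10532 genes were called (12.4% higher and 12.8% lower). Ephb3 encodes an ephrin-B receptor best known for sorting cells along the intestinal crypt (chr16:21204755-21223305). Its control libraries held 32.3, 49.5, 36.7, 55.9 and 38.9 normalised counts and its nicotine libraries 3.44, 4.83, 16.4, 7.21 and 23.4. The groups did not overlap, as for 16.7% of all genes, although nicotine 3 and 5 stood above the other 3 nicotine libraries. The means were 42.7 ± 9.71 and 11.1 ± 8.56 (SD, n = 5 each), 3.86-fold lower, with a log2 difference of -2.13 (SE 0.42).

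Efna5 (chr17:62604184-62881317) was at 37.2, 40.3, 73.4, 44.0 and 66.3 in female gWAT controls and at 118, 145, 76.4, 99.8 and 70.3 in the nicotine group. Nicotine 5 lay below control 3, so the ranges overlapped. The means were 52.2 ± 16.4 and 102 ± 30.7 (SD, n = 5 each), 1.95-fold higher, with a log2 difference of 0.95 (SE 0.25). Efnb1 was at 63.7, 26.6, 48.9, 49.5 and 77.8 in the controls and at 99.7, 105, 48.2, 80.5 and 71.3 in the nicotine group, with a log2 difference of 0.63 (SE 0.28) and overlap. The remaining genes had positive log2 differences with overlap, Epha4 at 0.74 (SE 0.40), Efnb2 at 0.63 (SE 0.37) and Ephb4 at 0.19 (SE 0.43), and were not called. The median over the 7 genes was 0.63, and -0.03 over all genes tested. Epha2 averaged 1.20 ± 1.29 and 1.86 ± 1.86 normalised counts.

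**Figure D3:**
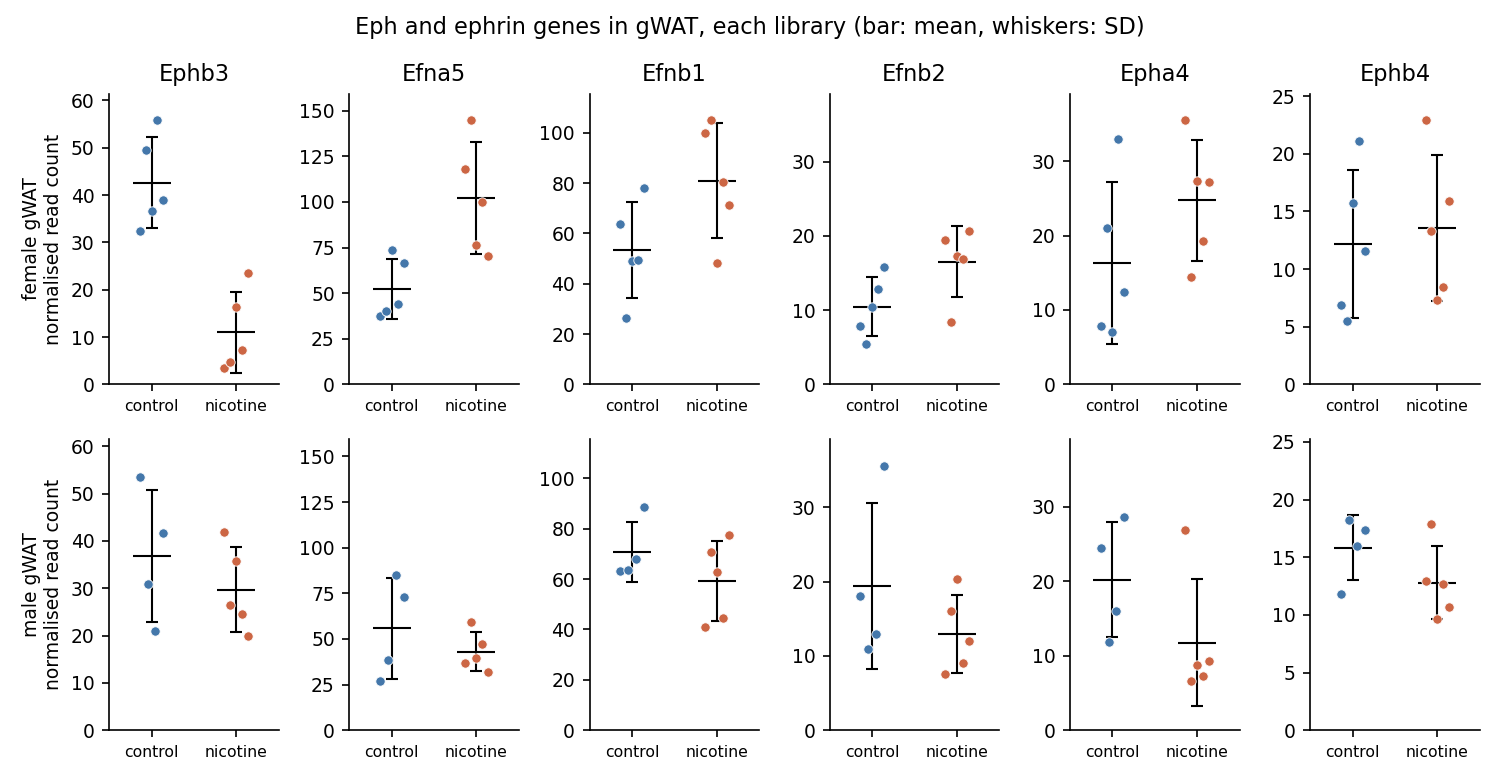
Normalised read counts of 6 genes in each gWAT library (points) with the group mean (bar) and SD (whiskers), females above and males below on the same axis for each gene. In females the Ephb3 groups do not overlap (32.3 to 55.9 against 3.44 to 23.4) and Efna5 averages 52.2 and 102, while in males each pair of groups overlaps.

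Some sums of cell type markers differed between the groups in female gWAT as well, and others overlapped. The 6 markers of adipose progenitors, all listed, summed to 1498 to 2265 in the controls and to 643 to 995 in the nicotine group, without overlap. The 7 listed macrophage markers (Clec4f is not listed) summed to 387 to 799 and to 123 to 281, also without overlap. The 12 endothelial markers summed to 1170 to 2436 and to 1921 to 3227, with overlap. The 8 adipocyte markers, all listed, summed to 41208 to 117440 and to 36220.5 to 62551, with overlap. Overlap was also seen for the 6 listed markers of arterial endothelium (Gja5 is not listed), at 171 to 246 and 180 to 329. Of the sinusoidal endothelium list used for liver, 6 genes are listed (Clec4g and Dnase1l3 are not). They summed to 97.1 to 171 and to 31.2 to 73.4, without overlap. Which cells of gWAT hold these 6 genes was not tested. The 7 listed cholangiocyte markers, which other epithelia share in part, summed to 33.3 to 407 and to 21.6 to 208, with overlap. Within the nicotine group they were highest in nicotine 5 and 3, the libraries with the most Ephb3. Within the controls the sums had the same order as Ephb3. Between the groups, control 1 with a sum of 33.3 held 32.3 of Ephb3, and nicotine 5 with 208 held 23.4. The part of these sums in the Ephb3 and Efna5 differences was not tested. Without control 2, the library richest in skeletal muscle transcripts, both genes were still called. The log2 difference was then 0.40 for Efnb1, 0.45 for Efnb2, 0.88 for Epha4 and -0.03 for Ephb4. With all libraries these were 0.63, 0.63, 0.74 and 0.19, so that of Ephb4 changed sign.

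In male gWAT limma called none of the 11210 genes tested (0%), and so none of the 7 members. Neither edgeR nor DESeq2 called a gene, and 182 genes (1.62%) but no member were at an unadjusted p below 0.05. All 7 log2 differences were below 0, with a median of -0.30 against 0.01 over all genes. The lowest was that of Epha4, at 24.5, 11.8, 16.0 and 28.7 in the controls and at 26.9, 6.59, 8.71, 7.25 and 9.33 in the nicotine group, a log2 difference of -0.85 (SE 0.44). Nicotine 1 alone stood among the controls. Ephb3 was at 53.4, 31.0, 21.0 and 41.7 in the controls and at 42.0, 26.4, 35.8, 24.5 and 20.0 in the nicotine group (-0.27, SE 0.31). Efnb2 (-0.48, SE 0.41), Ephb4 (-0.30, SE 0.29), Efnb1 (-0.29, SE 0.23) and Efna5 (-0.26, SE 0.34) overlapped too, in a table where 0.731% of genes tested did not. Without control column 1 and nicotine 1, the libraries with the most epididymal transcripts, all 7 stayed below 0, with Epha4 at -1.07, Efna5 at -0.50, Efna1 at -0.50 and Ephb3 at -0.20.

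Set side by side, the female and male gWAT differences were 0.95 and -0.26 for Efna5, 0.74 and -0.85 for Epha4, 0.63 and -0.48 for Efnb2, and -2.13 and -0.27 for Ephb3. As a description of genes chosen on these differences, the difference between the sexes in the gWAT effect (male minus female) was called for 1 of the 7 genes, Ephb3, at 1.86 on the log2 scale (SE 0.56), beside 8.87% of all genes. In liver it was called for 1 of 3, Efna1, beside 1.56%. The gWAT call rested on the full set of libraries: leaving out 1 library at a time, no member was called in 13 of 19 fits.

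Between the tissues, the 8 genes were compared in control libraries only, on log2(CPM + 1) with TMM scaling. The control libraries are shared with the exposure contrasts, so no p is given in females for Efna1 and Efna5. None is given either for genes that reached the required mean of 5 CPM only through gWAT, since such a gene had to be higher there. In females Efna1 was 6.59-fold lower in gWAT than in liver, 23.8 ± 4.02 against 157 ± 21.8 CPM (SD, n = 5 each), with a log2 difference (gWAT minus liver) of -2.67 (SE 0.15). In males it was 2.69-fold lower, 24.6 ± 5.24 (n = 4) against 66.1 ± 11.2 CPM (n = 5), with a log2 difference of -1.40 (SE 0.19, limma adjusted p = 2.69e-05). The ranges did not overlap in either sex. The share of all genes without overlap was not counted between tissues, so lack of overlap sets no gene apart here. Ephb3 went the other way, from 0.715 ± 0.982 CPM in liver to 20.9 ± 4.59 in gWAT in females (log2 difference 3.81, SE 0.35) and from 1.29 ± 0.991 to 16.2 ± 5.92 in males (2.97, SE 0.42). It passed the filter only through gWAT, and the ranges did not overlap in either sex.

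Efna5 was higher in gWAT in both sexes, by 0.72 in females (SE 0.21, without overlap) and by 0.89 in males (SE 0.32, limma adjusted p = 0.0269). In males this call was lost without liver control 3 or 5 or without the third or the fourth gWAT control column (limma adjusted p from 0.0503 to 0.103). Epha4 passed the filter in females only through gWAT, at 2.13 ± 0.543 CPM in liver and 7.95 ± 5.25 in gWAT (SD, n = 5 each), without overlap. In males it was under the filter, at 1.03 ± 0.504 CPM in liver and 8.95 ± 3.33 in gWAT, without overlap. Efnb1 was called higher in gWAT in males (0.84, SE 0.21, limma adjusted p = 0.00298). In females it was not (0.12, limma adjusted p = 0.702) except on plain library sizes (0.69, limma adjusted p = 0.0236), and whether the sexes differ in this was not tested. Efnb2 was at 2.95 ± 1.62 CPM in male liver and 8.59 ± 4.96 in male gWAT (SD, n = 5 and 4), without overlap, and passed the filter only through gWAT. In females its log2 difference was 0.00 (limma adjusted p = 0.993). Ephb4, which also passed the filter in females only through gWAT, overlapped there (0.20, SE 0.36). In males it was not called (0.33, limma adjusted p = 0.335) except on plain library sizes (0.94, limma adjusted p = 0.00925).

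Epha2 was too low to be fitted, at 3.92 ± 2.34 CPM in liver and 0.596 ± 0.639 in gWAT in females (SD, n = 5 each) and at 4.23 ± 1.91 and 0.919 ± 0.212 in males, higher in liver without overlap in both. In all, 4 of 7 fitted genes were called in females, 3 higher and 1 lower in gWAT, where 64.7% of all genes were called (32.1% higher and 32.6% lower). In males 5 of 6 were called, 4 higher and 1 lower, where 62.1% of all genes were called (30.0% higher and 32.1% lower). These counts include the genes that passed the filter only through gWAT and are a description. Without TMM scaling the median gene shifted toward gWAT by 0.57 in females and 0.67 in males, and the genes called higher in gWAT went from 49.6% to 74.7% of calls in females and from 48.3% to 76.4% in males. Efna1 stayed lower in gWAT on plain library sizes, by a log2 difference of -2.08 in females and -0.71 in males, while Efnb1 in females and Ephb4 in males gained calls.

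**Figure D4:**
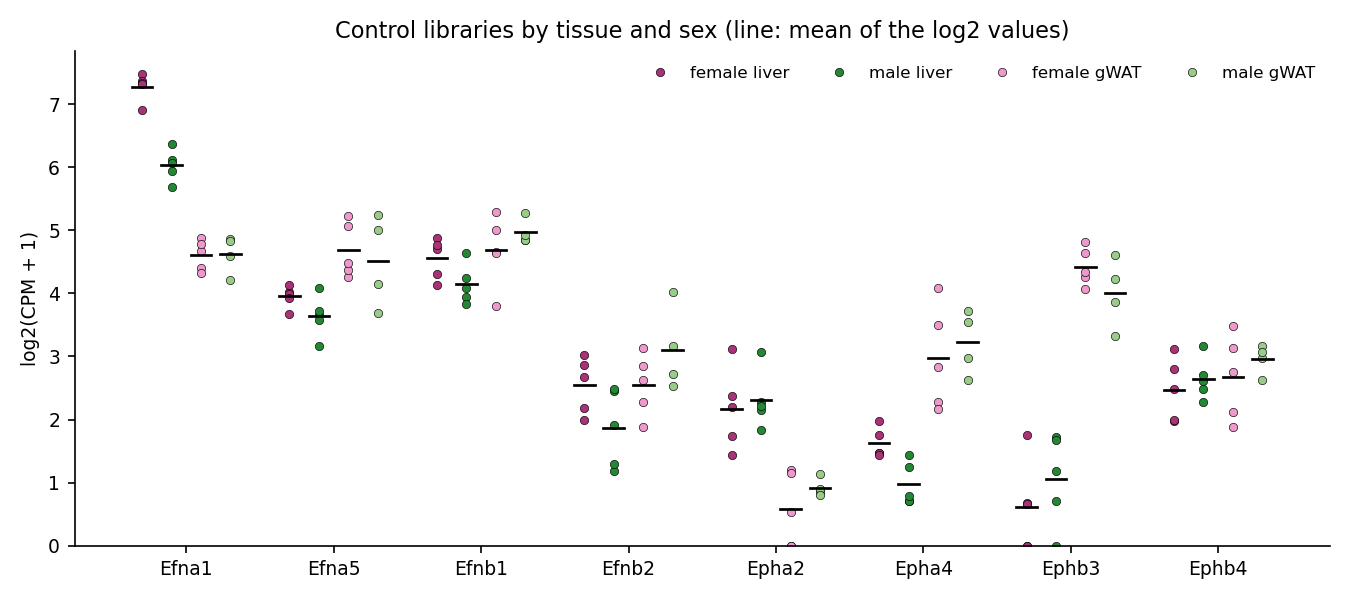
Level of each gene in every control library (points) as log2(CPM + 1), TMM-scaled over all 39 libraries, by tissue and sex, with the mean of the log2 values (line). Efna1 and Epha2 lie higher in liver and Ephb3 and Epha4 higher in gWAT, and the female liver controls hold the most Efna1.

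Of the other 14 Eph and ephrin genes, few were abundant enough to fit. Epha1, a receptor of ephrin-A1, was the one fitted in every table. In female liver it was at 69.7 ± 13.9 and 53.0 ± 13.5 normalised counts in controls and nicotine (SD, n = 5 each), a log2 difference of -0.40 (SE 0.18, limma adjusted p = 0.254). In male liver it was at 56.5 ± 10.2 and 43.5 ± 9.24 (-0.38, SE 0.18, limma adjusted p = 0.367). In gWAT the log2 difference was -1.80 in females (SE 0.89, limma adjusted p = 0.153) and -0.05 in males (SE 0.58, limma adjusted p = 1.00). Limma called none of these genes in any table (2 fitted in female liver, 1 in male liver, 2 in each gWAT), and edgeR and DESeq2 called none either. Only 1 was at an unadjusted p below 0.05, Epha1 in female liver, where 17.6% of all genes were. Epha1 was lower in gWAT than in liver among controls, by 2.60 on the log2 scale in females (limma adjusted p = 1.04e-04) and by 1.75 in males (limma adjusted p = 4.44e-04).

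The partner list holds 42 genes that carry Eph signals to the actin skeleton or cut and traffic the proteins. In female liver limma called 1 of 34 fitted, beside 3.28% of all genes. Inppl1, whose product SHIP2 binds EphA2, went from 81.8 ± 5.67 to 60.8 ± 4.13 normalised counts (SD, n = 5 each) without overlap, a log2 change of -0.42 (SE 0.11, limma adjusted p = 0.0474). The call was lost when any 1 library was left out (limma adjusted p from 0.0563 to 0.118) and under DESeq2 (adjusted p = 0.0815). In male liver limma called none of 33, and edgeR called none. At an unadjusted p below 0.05 were 3 of the 33, beside 14.5% of all genes. Chn2, which encodes the Rac-inactivating beta-chimaerin, had the smallest p there (157 ± 10.7 against 110 ± 18.3 normalised counts, -0.53, SE 0.14, limma adjusted p = 0.142) and was the 1 gene called by DESeq2 (adjusted p = 0.0370). Grb10, an adaptor of receptor kinases, came next (1.01, SE 0.32, limma adjusted p = 0.196). The median log2 difference of the list was -0.06 in female and 0.02 in male liver.

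In female gWAT 9 of 38 partner genes were called, 7 higher and 2 lower, a share close to the 25.2% of all genes. The list's median was -0.10, against -0.03 over all genes. Chn1, which encodes alpha-chimaerin, a Rac-inactivating protein that acts below EphA4, rose from 10.6 ± 5.18 to 29.6 ± 6.91 normalised counts (SD, n = 5 each) without overlap, a log2 change of 1.48 (SE 0.33, limma adjusted p = 0.00602). The adaptor Crk rose by 0.85 (SE 0.18, limma adjusted p = 0.00421), from 57.4 ± 10.2 to 104 ± 15.8 normalised counts.

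Dock1, an activator of Rac, rose by 0.74 (SE 0.20, limma adjusted p = 0.0154), Rasa1, which inactivates Ras, by 0.70 (SE 0.18, limma adjusted p = 0.0119), and the Src-family kinase gene Yes1 by 1.02 (SE 0.32, limma adjusted p = 0.0308). The Yes1 call was lost without control 1 or 4 or nicotine 2 or 4 (limma adjusted p from 0.0617 to 0.0853). Grb10 fell from 232 ± 31.8 to 147 ± 22.5 normalised counts (-0.66, SE 0.16, limma adjusted p = 0.00996), and Rac1, the GTPase itself, from 305 ± 27.4 to 208 ± 30.0 (-0.55, SE 0.15, limma adjusted p = 0.0154), each without overlap. Inppl1 was at a log2 difference of -0.57 (SE 0.20, limma adjusted p = 0.0514). These genes changed in the libraries in which the progenitor and macrophage marker sums were lower, and the part of those sums in the partner genes was not tested.

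In male gWAT limma, edgeR and DESeq2 called none of 40 partner genes, and none was at an unadjusted p below 0.05. The 2 of smallest p were Crkl (-0.34, SE 0.16) and Abl2 (-0.34, SE 0.17), each with a limma adjusted p of 1.00. The sex difference in the gWAT effect was called for 2 of 38, beside 8.87% of all genes. Among the 2 was Chn1 (male minus female -1.91, SE 0.47). Chn1 is named for its call in the same female libraries, so this value is a description. Leaving out 1 library at a time gave between 1 and 4 calls on the list.

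Within 100 kb of Efna1 the annotation holds 23 genes outside the family. In female liver, where Efna1 was lower, limma called none of the 5 fitted, with none at an unadjusted p below 0.05 and none by edgeR or DESeq2. Their log2 differences were 0.50 for Mtx1, 0.33 for Clk2, 0.18 for Krtcap2, 0.10 for Dpm3 and -0.22 for Zbtb7b. Dpm3, whose product holds the dolichol-phosphate mannose synthase together and whose gene ends 4654 bases from Efna1, was at 78.0 ± 14.0 and 83.0 ± 6.70 normalised counts there (SD, n = 5 each). In female gWAT 3 of 8 fitted neighbours were called lower, beside 12.8% of all genes. Dpm3 fell from 176 ± 64.8 to 41.9 ± 9.85 normalised counts without overlap (-2.00, SE 0.24, limma adjusted p = 1.65e-04), while Efna1 differed by -0.33 in the same libraries. The other two were Thbs3 (-1.28, SE 0.39, limma adjusted p = 0.0281) and Krtcap2 (-0.69, SE 0.23, limma adjusted p = 0.0417). The Thbs3 call was lost without control 1, 3 or 5 or nicotine 2 or 3, and the Krtcap2 call without any one of controls 1, 2, 4 and 5 and nicotine 2, 4 and 5 (limma adjusted p from 0.0506 to 0.103). None of the neighbours was called in male liver (7 fitted) or male gWAT (8 fitted), and none there by edgeR or DESeq2. At an unadjusted p below 0.05 were 2 of them in male liver, beside 14.5% of all genes. In male gWAT 0 were, beside 1.62% of all genes.

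The genes whose pattern was most like that of Efna1 were found by Pearson's r of log2 values over the 39 libraries, each table centred on its mean, among 7752 genes fitted in all 4 tables. They were Ypel2 (r = 0.70), Rfwd3 (0.67), G0s2 (0.63), an inhibitor of triglyceride lipase, Mxd1 (0.62) and Gse1 (0.59). All 5 had a log2 difference below 0 in female liver, -1.52, -1.20, -2.03, -0.94 and -0.78 in that order. The ranking used values that hold the Efna1 difference in female liver. It therefore favoured genes lower there, and the shared direction is no separate result. With each group centred on its own mean, which leaves the spread within groups, r was 0.05 for Ypel2, 0.44 for Rfwd3, 0.07 for G0s2, 0.58 for Mxd1 and 0.29 for Gse1. The libraries share their tables, groups and scaling, so these values describe likeness and are not tested. Among the partner genes Abl1 was the most like Efna1 (r = 0.41), and among the other members Efnb1 (r = 0.24).

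The authors' deposited table for female liver gave Efna1 an adjusted p below 0.05 and no other member, among 316 genes below it. For Efnb2, Epha2, Epha4, Ephb3 and Ephb4 it held no adjusted p. The authors' deposited table for female gWAT gave Efna5 and Ephb3 among 2903 genes, and held no adjusted p for Epha2. The authors' deposited tables for male liver (154 genes) and male gWAT (0 genes) gave no member. In male liver Epha4 and Ephb3 had no adjusted p.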

How the data were processed

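RNA of liver and gonadal white adipose tissue was measured by 3′ tag sequencing in 39 libraries. Per the submitters' processing notes, reads were trimmed with cutadapt and aligned with STAR to mm10, and DESeq2 was used, with versions not given in the sources used here. The labels give 1 batch for all samples. Per the file headers, the authors' deposited values are normalised counts, treated here as a signal because each library was divided by 1 size factor within its table. Whole reads were recovered within 0.1 read for 100% of values. The authors' deposited tables also hold log2 fold changes and adjusted p-values (p-value columns) of their own comparison. Whether counting used strand is not given in the sources used here.

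Here each table was fitted alone in limma 3.58.1 (R 4.3.3, moderated variances with a trend) on log2(normalised count + 1). Genes averaging at least 10 were fitted, p-values were adjusted over all of them (Benjamini-Hochberg), and 0.05 was the threshold. Sex differences were interactions in the same scale. Tissues, and sexes in controls, were compared on recovered reads as log2(CPM + 1) with TMM factors (edgeR 4.0.16) and a mean of 5 CPM or more, using the libraries of the compared groups. The fits were tested on simulated data. The male gWAT table has 4 control columns for 5 labelled control samples, and which sample each column holds is not shown. Same-numbered libraries showed little likeness: correlations between their deviations ran from -0.28 to 0.17 over the 20 pairs. Liver was set against gWAT in 5 of these pairs, in control females only, at -0.098 to 0.067. Of these 5, 2 were most like the library of their own number. This cannot decide whether liver and gWAT of the same number come from the same animal. The labels do not say so either, and the tissue comparison treated the libraries as unpaired. The lowest chi-square per degree of freedom between libraries of a group was 2.22, so none was a repeat of another. The 8 genes and all lists were chosen with earlier results of these data known. Besides the 8, family and partner genes are named where called or, where none was called, the 2 of smallest p, along with neighbours of Efna1 within 100 kb and the 5 genes most like it. Of the called partner genes, 2 are counted but not reported here. DESeq2 1.42.0, edgeR, other pseudocounts, filters and scalings, and left-out libraries served as alternatives.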

Additional observations from a re-analysis of the deposited data

Results flagged for a closer look

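In 5 of the 64 groups of libraries examined for the 8 genes, 1 library lay farther from the rest than Dixon's 95% limit allows, and chance flags about 1 in 20 groups. Epha2 was at 11.5 normalised counts in male liver control 3, against 3.96 to 5.87 in the other controls. Epha4 was at 8.85 in female liver nicotine 1, against 0.951 to 3.22, and at 26.9 in male gWAT nicotine 1, against 6.59 to 9.33. Ephb3 was at 3.80 in female liver control 4, against 0 to 0.971, and at 2.85 in female liver nicotine 2, against 0.983 to 1.09. The liver values are a few reads per library. Male gWAT nicotine 1 also held a sum of 15614 for the 7 epididymis and testis markers, and its part in the Epha4 value was not tested.

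The exposure difference itself differed between the sexes for Efna1 in liver, by 1.82 on the log2 scale (male minus female), and for Ephb3 in gWAT, by 1.86. Both genes were chosen with these differences known.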

How the results depend on the processing

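The members' exposure calls describe genes chosen on these values. Their count stayed at 1 in female liver and at 2 in female gWAT with edgeR, DESeq2, other pseudocounts and each library left out, except that with a mean of 50 or more 1 member was called in female gWAT (fewer genes were fitted). The partner call in female liver went from 1 to 0 without a filter, with DESeq2, with the replicate block, without control 4 and nicotine 5, and with each library left out (0 to 0). Genes called in female liver went from 301 to 181 without those libraries, and to 185 to 329 with 1 library left out. Male liver had 0 calls with a mean of 50 or more or with the replicate block, 3 with edgeR, 186 with DESeq2 (with 1 partner gene), 54 without nicotine 2 and 4, and 0 to 16 with 1 library left out. The sex difference in gWAT called 0 members without a filter or with a mean of 50 or more, and 0 to 2 with 1 library left out, with 448 to 1122 genes. In liver 71 to 280 genes were called. In males 3 to 6 members were called between tissues with 1 library left out, and in females the tissue difference then ran from -0.038 to 0.34 for Efnb1 and from -0.14 to 0.17 for Efnb2, changing sign. On plain library sizes Efnb1 in females (0.69) and Ephb4 in males (0.94) were called. Control sexes differed in 91 gWAT genes with edgeR (177 with limma) and in 42 to 159 with 1 library left out. The cause of these changes was not tested.

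With the replicate number as a block, 2 members and 6 partner genes were called in female gWAT, against 2 and 9 without it, and 1 neighbour of Efna1 against 3. Rac1 (limma adjusted p = 0.0528), Dock1 (0.0505) and Yes1 (0.0597) were the partner genes that lost their calls, and Thbs3 (0.0596) and Krtcap2 (0.0988) the neighbours. Whether the numbers mark pairs is not known, so these lost calls cannot be judged. The block changed no call of a member in the tables in which it was fitted. In male gWAT no block was fitted, because which sample each control column holds is not shown. At about 10 normalised counts or fewer, which covers most Eph receptors in liver, counting error limits what can be seen.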
